A study of Mus musculus with 16 samples.

Results

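The genes described here are 10 netrin and Slit-Robo axon guidance genes of the mouse, taken by name from the 35976 genes of the count table. They are the secreted ligand gene Ntn1, the membrane-anchored netrin-G genes Ntng1 and Ntng2, the ligand genes Slit1, Slit2 and Slit3, and the receptor genes Robo1, Robo2, Dcc and Unc5b. All were present in the table, and all 10 had enough counts to enter the 13891 genes tested. They were chosen by family and not by a threshold on their values, but with earlier results of these data known. They are not whole families. Relatives such as Neo1, Unc5a, Unc5d and Robo3 are counted among the further pathway genes below.

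The libraries came from neural tube organoids on day 4, grown from R1, a mouse embryonic stem cell line. All cells carried the FOXA2-Venus reporter and were treated with retinoic acid (RA) for 18 hours, so no untreated or reporter-free cells serve as a reference. FOXA2 is a transcription factor of the floor plate, the strip of cells along the ventral midline of the neural tube. Cells formed 4 groups by FOXA2 expression, called the negative, low, medium and high gates here, with 4 libraries each. R1 is a single line, and the labels do not say whether the numbered libraries came from separate cultures, so the p-values rest on differences among libraries that may be technical. The RNA was read by BRB-seq, a bulk method that barcodes samples early and counts the 3′ ends of transcripts.

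Commissural axons of the spinal cord are drawn to the floor plate by netrin-1, which the floor plate secretes and which axons sense through the receptor DCC. Receptors of the UNC5 family turn the response to netrin-1 into repulsion. Slit proteins, also released at the midline, repel axons through Robo receptors. Netrin-G proteins share the netrin fold but stay anchored to the membrane, do not use DCC, and bind the adhesion proteins of the NGL (Lrrc4) family.

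Total counts ran from 3268948 to 9961032 per library, so 1 count equalled 0.306 CPM (counts scaled to a common library total) at the lowest depth and 0.1 CPM at the highest. The lowest totals were those of high 4 and high 2 (3998294), and the highest that of negative 4. Within the high gate, high 2 and high 4 had the highest CPM of Ntn1, Slit2, Slit3, Robo1, Dcc and Unc5b and the lowest of Robo2. This was not so for Ntng1, Ntng2 and Slit1. Depth was thus not balanced between the gates, and its part was not tested beyond the thinning to equal depth described below. Foxa2 averaged 2.9, 11.9, 51.8 and 113 CPM in the negative, low, medium and high gates (SD 1.68, 3.01, 9.33 and 18.1, n = 4 each). Because FOXA2 expression defined the gates, this checks the labels and is not a finding. The first principal component of all genes tested held 28.8% of the variance. For the second (9.94%), scores were 6.14, 36.5, 2.09 and 11.3 in high 1, 2, 3 and 4. In negative 1, 2, 3 and 4 they were 20.6, 18.6, 15.7 and 0.204. High 2 and negative 4 thus stood apart within their gates. Low 1 and medium 2 lay apart from the other libraries of their gates on the third component, which held 9.01%. The neural progenitor gene Pax6 was read at 95.1, 86.9, 56.7 and 23.7 CPM in the 4 gates, while Sox1 and Sox2 were listed at 0 in every library. The annotation used for counting is not given, so a gene at 0 in every library is not read as absent from the cells. The same holds for Noto and Ferd3l below.

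Cells of the high gate had more RNA for 4 ligand genes and for the receptor gene Robo1, and less for the receptor genes Robo2 and Dcc, than cells of the negative gate. In the high gate against the negative gate, Ntn1, Ntng1, Slit1, Slit3 and Robo1 were higher and Robo2 and Dcc were lower, by edgeR's quasi-likelihood test with Benjamini-Hochberg adjustment over all genes tested and a threshold of 0.05. All further adjusted p-values are from this test. Slit2, Ntng2 and Unc5b did not pass it. The 7 called genes, 5 higher and 2 lower, stand beside a background of 17% of all genes called in this comparison, 8.42% higher and 8.55% lower. The median log2 fold change was 0.62 over the 10 genes and 0.002 over all genes tested. In each of the 7, the 4 high libraries and the 4 negative libraries did not overlap. How many of all genes tested were apart in this way was not counted, so this is a description and no further support. In bulk RNA, fewer cells of a type and less RNA per cell cannot be told apart.

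**Figure D1:**
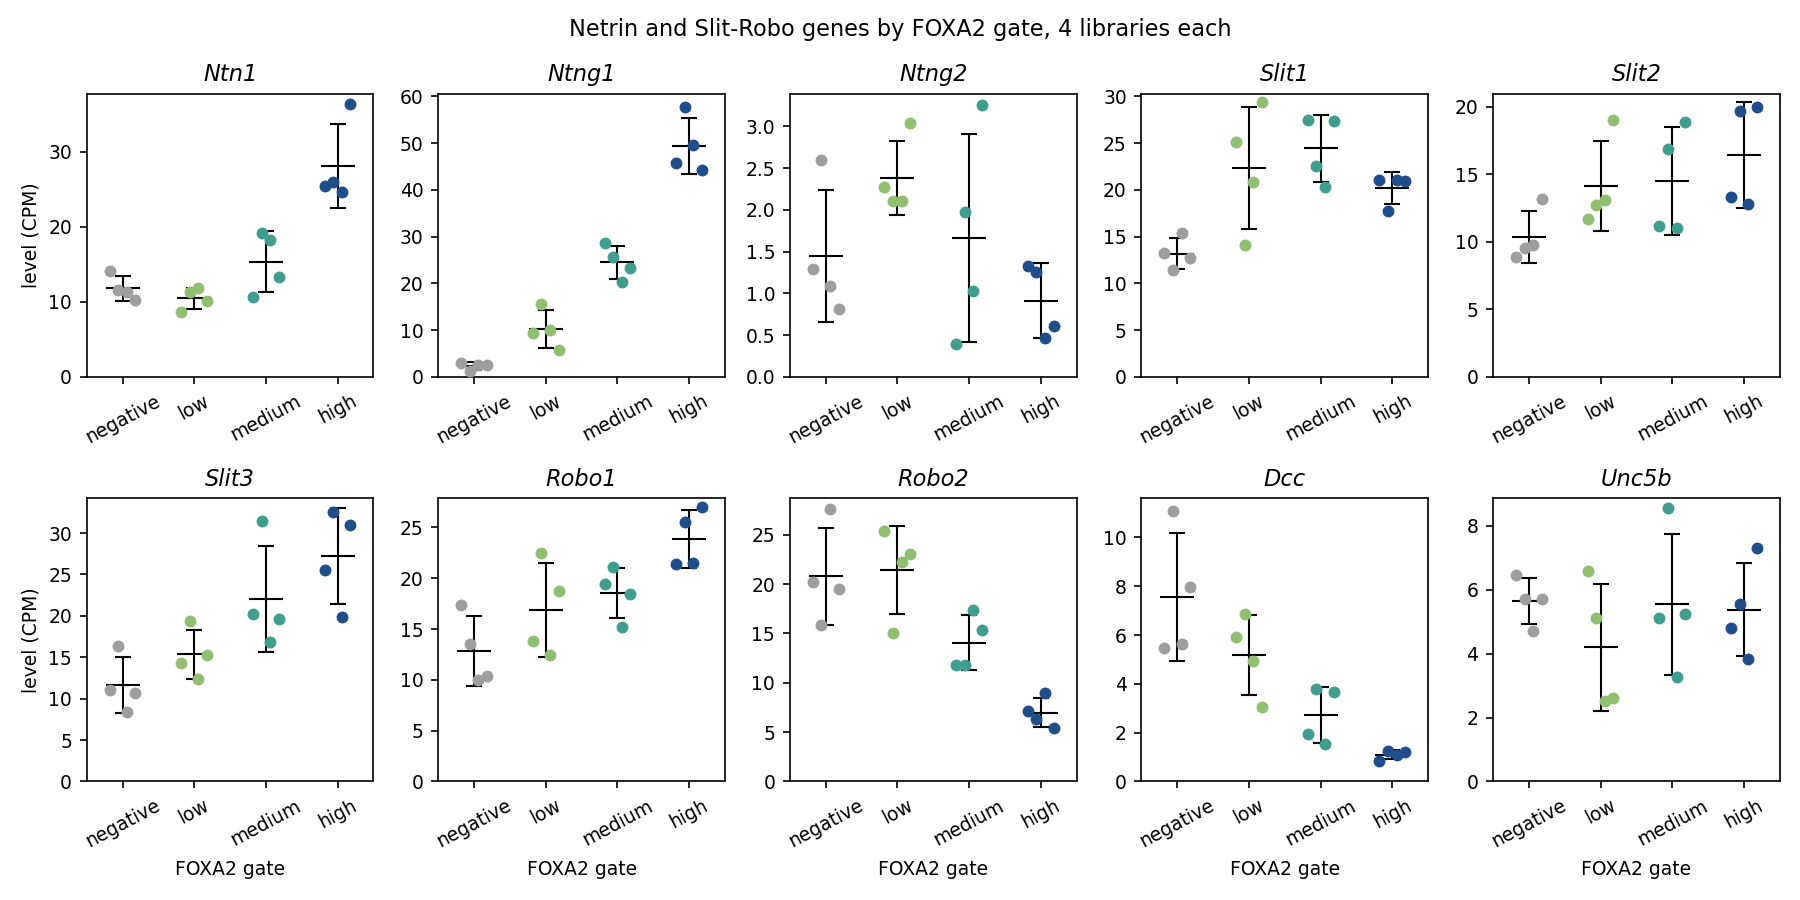
Level of each of the 10 genes in CPM (vertical axis, each panel with its own scale from 0) in the negative, low, medium and high FOXA2 gates. Points are the 4 libraries of a gate and bars are the mean ± SD. Ntng1 climbs from gate to gate to a mean of 49.4 CPM in the high gate, while Robo2 and Dcc are lowest there, at means of 6.95 and 1.1 CPM.

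Ntn1, the gene of netrin-1, spans bases 68209364 to 68400823 of chromosome 11 on the minus strand (GRCm38). In the high libraries it was read at 25.5, 26.0, 24.6 and 36.4 CPM, against 14.1, 11.6, 11.3 and 10.2 CPM in the negative libraries. The lowest high library was thus above the highest negative one. On the log2 scale this was a rise of 1.25 (SE 0.195, adjusted p = 2.07e-05). The low libraries held 8.71, 11.3, 11.8 and 10.1 CPM of Ntn1 and the medium libraries 10.6, 19.2, 18.3 and 13.3 CPM. Both of these gates overlapped the negative gate. Neither passed the test against it, with a log2 fold change of −0.17 for low (adjusted p = 0.787) and 0.39 for medium (adjusted p = 0.265).

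Ntn1 was also higher in the high gate than in the medium gate by 0.86 on the log2 scale (SE 0.192, adjusted p = 0.0182) and higher than in the low gate by 1.41 (SE 0.196, adjusted p = 8.69e-06). The call against the medium gate was lost when medium 1, medium 4 or high 4 was left out (adjusted p = 0.106, 0.103 and 0.114) and after thinning to equal depth (adjusted p = 0.0818). Among the floor plate markers apart from Foxa2, the summed level ran from 49.0 to 60.0 CPM in the high libraries and from 13.7 to 19.1 CPM in the negative libraries. Of the 5 genes of that list that were tested, 4 rose, Foxa2 itself among them. The other, Lmx1a, was not called (log2 fold change −1.02, adjusted p = 0.33). It averaged 0.626 CPM in the high gate and 1.3 CPM in the negative gate. Spon1, a secreted floor plate protein, was at 28.4 CPM in the high gate and 8.99 CPM in the negative gate. Ferd3l was at 0 throughout, and Shh had 26 counts in all high libraries together and 7 in all negative libraries. The part of floor plate cells in the Ntn1 result was not tested.

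Ntng1 encodes netrin-G1 and spans bases 109780040 to 110144011 of chromosome 3 on the minus strand. It had the largest change of the 10 genes. Its 4 high libraries held 45.8, 57.8, 49.7 and 44.3 CPM, against 3.07, 1.21, 2.54 and 2.45 CPM in the negative libraries. The log2 fold change was 4.39 (SE 0.252, adjusted p = 1.54e-13), the 16th highest of the 13891 genes tested. The low libraries lay at 9.47, 15.5, 10.1 and 5.79 CPM and the medium libraries at 28.7, 25.7, 20.3 and 23.4 CPM.

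No 2 gates overlapped for Ntng1, and it was the single gene of the 10 called in all 6 comparisons of gates. Against the negative gate it rose by 2.11 on the log2 scale in the low gate (SE 0.266, adjusted p = 3.55e-06) and by 3.38 in the medium gate (SE 0.254, adjusted p = 9.25e-11). The medium gate exceeded the low gate by 1.27 (SE 0.211, adjusted p = 0.000857) and the high gate exceeded the medium gate by 1.01 (SE 0.197, adjusted p = 0.00542). None of the 24 alternative analyses ended any of these calls. Markers of 2 other tissues were higher in the high gate as well. All 4 notochord markers tested rose, and of 4 endoderm markers tested Sox17, Cldn6 and Ttr rose and Gata4 was not called. The summed level of 5 notochord markers was 292 to 359 CPM in the high libraries and 111 to 132 CPM in the negative ones, with the defining gene Noto at 0. Most of this sum was Krt18, an epithelial keratin gene, at 269 CPM in the high gate and 112 CPM in the negative gate, while T was at 4.24 CPM in the high gate and 0.476 CPM in the negative gate. The sum of 8 endoderm markers was 293 to 305 CPM in the high libraries and 47.3 to 50.2 CPM in the negative ones. Cldn6 and Sox17 made up most of it, at 148 and 134 CPM in the high gate and 32.3 and 11.7 CPM in the negative gate. Hnf4a was at 0 in the high libraries. The part of either tissue in the Ntng1 result was not tested.

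Ntng2 encodes netrin-G2 and spans bases 29194541 to 29253005 of chromosome 2 on the minus strand. It was close to the limit of detection. The high libraries held 8, 5, 3 and 2 counts of it, and the negative libraries 8, 15, 6 and 8. Its level averaged 0.914 ± 0.444 CPM in the high gate and 1.45 ± 0.79 CPM in the negative gate (SD, n = 4 each). The log2 fold change of −0.62 had a 95% interval from −1.86 to 0.62 (adjusted p = 0.555), so neither a rise nor a fall within that interval was excluded at this depth. The high libraries lay below all low libraries, which held 2.27, 2.11, 2.11 and 3.04 CPM, but that difference of −1.37 was not called (adjusted p = 0.182). An exon of Ntng2 overlaps the noncoding gene 6530402F18Rik on the same strand, which had 15 counts in all libraries together.

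The start regions of Ntng1, Robo1 and Robo2 are shown because Ntng1 rose most and because the receptor genes Robo1 and Robo2, both on chromosome 16, moved in opposite directions. The sequences are from RefSeq (GRCm38.p6), 250 bases before to 50 bases after an annotated start, 5′ to 3′ on the strand of the gene, and the capital letter marks the first transcribed base. The windows are chr3:110143423-110143722 on the minus strand for Ntng1, chr16:72662899-72663198 on the plus strand for Robo1 and chr16:74411776-74412075 on the minus strand for Robo2.
Ntng1: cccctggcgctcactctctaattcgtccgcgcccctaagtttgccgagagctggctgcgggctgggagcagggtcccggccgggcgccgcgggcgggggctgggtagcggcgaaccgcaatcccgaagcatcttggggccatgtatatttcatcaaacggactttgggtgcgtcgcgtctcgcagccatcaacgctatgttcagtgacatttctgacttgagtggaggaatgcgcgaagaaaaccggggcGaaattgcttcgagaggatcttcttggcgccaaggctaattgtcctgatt
Robo1: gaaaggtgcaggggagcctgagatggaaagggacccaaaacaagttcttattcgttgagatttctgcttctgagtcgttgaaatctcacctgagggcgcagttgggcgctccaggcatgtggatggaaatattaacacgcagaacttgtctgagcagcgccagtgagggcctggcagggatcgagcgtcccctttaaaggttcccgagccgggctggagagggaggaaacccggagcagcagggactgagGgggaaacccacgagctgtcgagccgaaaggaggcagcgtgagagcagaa
Robo2: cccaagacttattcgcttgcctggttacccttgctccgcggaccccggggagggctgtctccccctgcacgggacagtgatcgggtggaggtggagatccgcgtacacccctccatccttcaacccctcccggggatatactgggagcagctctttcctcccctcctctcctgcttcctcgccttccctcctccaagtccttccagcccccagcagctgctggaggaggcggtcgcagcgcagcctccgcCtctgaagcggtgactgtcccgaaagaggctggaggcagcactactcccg
Neither the forkhead motif TGTTTAC nor TGTTTGC was found on either strand in these 3 windows, nor in any of the 9 windows held for 7 of the 10 genes (Ntng1, Ntng2, Slit2, Slit3, Robo1, Robo2 with 3 windows, and Unc5b). Of 32851 promoter windows of the same length, 3.65% held TGTTTAC and 5.07% held TGTTTGC on either strand, and 8.48% held at least one of them. The G and C content was 59.7% in the Ntng1 window, 57.0% in the Robo1 window and 65.0% in the Robo2 window shown, against a median of 52.7% over all windows. In the Robo2 windows not shown it was 53.3% and 45.0%. Those windows lie outside the span given for Robo2 below, and the Robo1 window lies well inside that of Robo1. Counts of 3′ ends do not show which start was used.

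The Slit genes encode secreted ligands of the Robo receptors. Slit3 spans bases 35121224 to 35708507 of chromosome 11 on the plus strand. It was read at 25.5, 32.5, 19.8 and 31.0 CPM in the high libraries, against 11.0, 16.4, 8.35 and 10.7 CPM in the negative libraries. All high libraries were above all negative ones, and the log2 fold change was 1.21 (SE 0.218, adjusted p = 0.000147). The medium libraries held 20.2, 31.4, 16.9 and 19.6 CPM, also above every negative library, and Slit3 rose there by 0.93 (SE 0.217, adjusted p = 0.00487). The low libraries, at 14.3, 19.4, 12.4 and 15.3 CPM, overlapped the negative ones and were not called (log2 fold change 0.4, adjusted p = 0.43). The high gate exceeded the low gate by 0.82 (SE 0.213, adjusted p = 0.0146), a call that was lost without low 3, high 2 or high 4 (adjusted p = 0.0671, 0.067 and 0.0522) and after thinning (adjusted p = 0.053). Thinning also ended the call of medium against negative (adjusted p = 0.052).

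Slit1 (bases 41600257 to 41743665 of chromosome 19, minus strand) was higher than in the negative gate in each of the other gates. The negative libraries held 13.2, 11.4, 15.4 and 12.7 CPM. The low libraries held 25.1, 14.1, 20.8 and 29.4 CPM, the medium libraries 27.5, 22.5, 20.3 and 27.4 CPM and the high libraries 21.1, 17.7, 21.1 and 20.9 CPM. The medium and the high libraries were all above the negative ones, while low 2 lay within the range of the negative gate.

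The log2 fold change of Slit1 against the negative gate was 0.77 in the low gate (SE 0.186, adjusted p = 0.0136), 0.89 in the medium gate (SE 0.187, adjusted p = 0.00168) and 0.62 in the high gate (SE 0.191, adjusted p = 0.0234). The high and medium gates did not pass the test against each other, with a difference of −0.27 and a 95% interval from −0.65 to 0.11 (adjusted p = 0.749). The calls in the low and high gates lay near the threshold. The call in the high gate was lost without negative 2, negative 4, high 1, high 3 or high 4 and after thinning, with adjusted p between 0.051 and 0.103. That in the low gate was lost without negative 2, low 1 or low 4 and after thinning, with adjusted p between 0.0523 and 0.0864.

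Slit2 (bases 47983138 to 48307733 of chromosome 5, plus strand) was read at 13.3, 19.7, 12.8 and 20.0 CPM in the high libraries, against 8.89, 9.52, 9.8 and 13.2 CPM in the negative libraries. High 3 lay just under negative 4, so the gates overlapped. The log2 fold change of 0.63 (95% interval 0.17 to 1.09) missed the threshold, with an adjusted p of 0.0514, and 13 of the 24 alternatives put it past the threshold. The means in the low and medium gates, 14.1 ± 3.27 and 14.5 ± 4.02 CPM (SD, n = 4 each), lay between those of the negative and high gates.

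Robo1 and Robo2 encode Slit receptors of the same family. Robo1 spans bases 72308306 to 73046095 of chromosome 16 on the plus strand. In the high libraries it was read at 21.4, 25.5, 21.5 and 27.0 CPM, against 17.4, 13.5, 9.98 and 10.4 CPM in the negative libraries, without overlap. Robo1 rose by 0.89 on the log2 scale in the high gate (SE 0.202, adjusted p = 0.00213). The low libraries held 13.8, 22.5, 12.4 and 18.7 CPM and the medium libraries 19.4, 21.1, 15.2 and 18.4 CPM. Against the negative gate, the difference of 0.39 in the low gate (adjusted p = 0.387) and that of 0.53 in the medium gate (adjusted p = 0.106) were not called. Without negative 1, the highest of its gate, the medium gate was called higher by 0.71 (adjusted p = 0.0336). The high libraries were all above the medium ones, but the difference of 0.36 was not called (adjusted p = 0.651).

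Robo2, at 73891839 to 74411825 on the minus strand of chromosome 16, went the other way. It was read at 7.13, 6.31, 8.92 and 5.46 CPM in the high libraries, against 20.2, 15.8, 27.6 and 19.5 CPM in the negative libraries. Every high library was below every negative one, and Robo2 fell by 1.54 on the log2 scale in the high gate (SE 0.219, adjusted p = 4.94e-06). The low libraries, at 25.4, 15.0, 22.2 and 23.0 CPM, covered nearly the same range as the negative ones, with a difference of 0.05 (95% interval −0.34 to 0.45, adjusted p = 0.943). The medium libraries held 11.8, 11.8, 17.4 and 15.3 CPM, and their difference from the negative gate of −0.55 was not called (adjusted p = 0.0879).

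The high gate was lower in Robo2 than the low gate by 1.59 on the log2 scale (log2 fold change −1.59, adjusted p = 7.21e-06). It was also lower than the medium gate (log2 fold change −0.99, SE 0.224, adjusted p = 0.0208). That call was lost without medium 3, medium 4, high 1, high 2 or high 4, with adjusted p between 0.071 and 0.103. Pax6, Sox3, Nes and Hes5, the 4 neural progenitor markers tested, all fell in the high gate as well. The list's summed level was 56.8 to 74.4 CPM in the high libraries and 236 to 279 CPM in the negative libraries. In the low libraries it was 241 to 302 CPM. Pluripotency markers fell too, in 6 of 6 genes tested, with sums of 38.0 to 60.3 CPM in the high libraries and 454 to 791 CPM in the negative libraries. Their sum was already 69.2 to 139 CPM in the low libraries. Most of this sum in the negative gate was Utf1, at 363 CPM there and 16.7 CPM in the high gate. The part of either cell type in the Robo2 result was not tested.

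Dcc, the receptor gene for attraction to netrin-1, spans bases 71253634 to 72351069 of chromosome 18 on the minus strand. It was read at 0.829, 1.26, 1.08 and 1.21 CPM in the high libraries, from 5, 5, 7 and 4 counts, against 5.49, 11.1, 5.63 and 7.96 CPM in the negative libraries, from 34, 64, 31 and 78 counts. The gates did not overlap, and Dcc fell in the high gate, the fitted change being −2.79 on the log2 scale (SE 0.403, adjusted p = 5.98e-06). In the order from highest to lowest it stood at place 13793 of the 13891 genes tested. The medium libraries, at 1.96, 3.78, 1.55 and 3.67 CPM, were also all below the negative ones, and Dcc fell there too, with a fitted change of −1.44 (SE 0.342, adjusted p = 0.00563).

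The low libraries held 5.94, 6.87, 4.93 and 3.04 CPM of Dcc, a difference of −0.54 from the negative gate that was not called (adjusted p = 0.476). The high gate was lower than the low gate (log2 fold change −2.25, adjusted p = 0.000393). All high libraries were also below all medium ones, but with few counts the difference of −1.36 had a wide 95% interval, from −2.25 to −0.47, and was not called (adjusted p = 0.192). Of 8 neuron markers tested, 5 fell in the high gate (Stmn2, Tubb3, Elavl3, Nefl and Nefm) and none rose. The list's summed level was 99.8 to 121 CPM in the high libraries and 202 to 285 CPM in the negative libraries. In the medium libraries it was 148 to 158 CPM and in the low libraries 145 to 204 CPM. Of 4 neural crest markers tested, Tfap2b fell, and that list's sum was 3.34 to 10.3 CPM in the high libraries and 10.7 to 27.9 CPM in the negative libraries. Most of this sum in the negative gate was Tfap2b, at 11.9 CPM there and 1.45 CPM in the high gate. Tfap2a, Ets1 and Erbb3 were not called. The part of neurons or neural crest cells in the lower Dcc level was not tested.

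Unc5b, a netrin receptor gene also known from blood vessels, spans bases 60762593 to 60831581 of chromosome 10 on the minus strand. It was read at 4.81, 5.55, 3.84 and 7.29 CPM in the high libraries and at 6.46, 5.71, 4.72 and 5.72 CPM in the negative libraries. The 2 ranges overlapped, and the log2 fold change was −0.11 with a 95% interval from −0.79 to 0.57 (adjusted p = 0.876). The low gate averaged 4.2 ± 1.98 CPM and the medium gate 5.54 ± 2.2 CPM (SD, n = 4 each), and Unc5b was called in none of the 6 comparisons. The smallest unadjusted p among them was 0.202, for low against negative. The summed level of 6 endothelial markers was 2.0 to 6.37 CPM in the high libraries and 5.71 to 12.0 CPM in the negative ones. Of the 2 tested, Pecam1 fell and Tek was not called. Most of the sum in the negative gate was Pecam1 alone, at 7.37 CPM there and 1.88 CPM in the high gate. Cdh5, Emcn and Tie1 had 2 counts each in all negative libraries together.

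**Figure D2:**
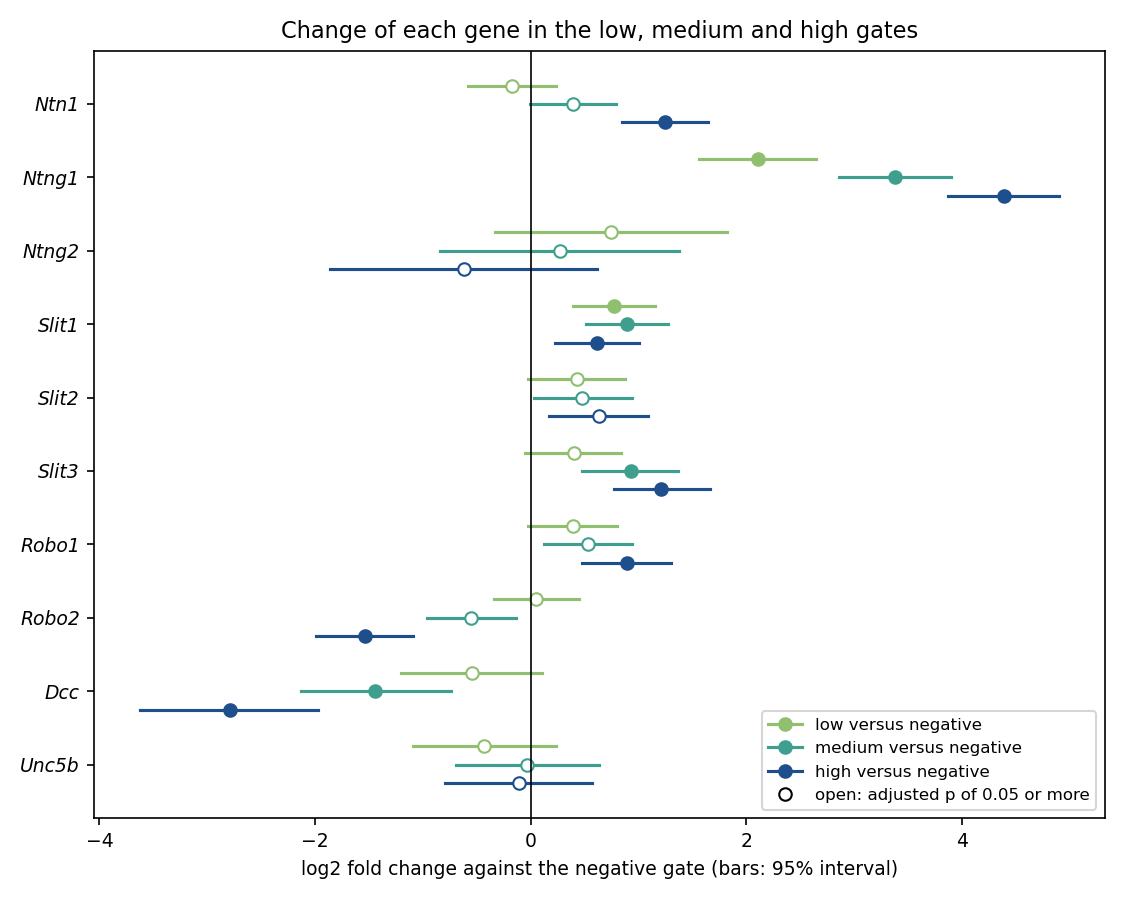
Log2 fold change of each gene against the negative gate (horizontal axis) in the low, medium and high gates, with 95% intervals as bars, from edgeR's quasi-likelihood fit. Filled points had an adjusted p under 0.05. Ntng1 is filled in all 3 gates and reaches 4.39, Ntn1, Robo1 and Robo2 are filled in the high gate alone, and Ntng2, Slit2 and Unc5b are open throughout.

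Counted by comparison, 4 of the 10 genes were called in medium against negative (Ntng1, Slit1 and Slit3 higher, Dcc lower) and 2 in low against negative (Ntng1 and Slit1, both higher). The background was 8.46% of all genes tested in medium against negative (4.24% higher and 4.22% lower) and 3.76% in low against negative (1.47% higher and 2.29% lower). In high against low, 5 genes were called (Ntn1, Ntng1 and Slit3 higher, Robo2 and Dcc lower), beside 6.87% of all genes (3.79% higher and 3.08% lower). Between neighbouring gates, 3 genes were called in high against medium (Ntn1 and Ntng1 higher, Robo2 lower) beside 0.914% (0.367% higher and 0.547% lower). Ntng1 alone was called in medium against low, beside 0.713% (0.49% higher and 0.223% lower). The comparisons against the negative gate share its 4 libraries and are not independent of each other. The median log2 fold change of the 10 genes was 0.44 in medium against negative and 0.39 in low against negative, and the medians of all genes tested were 0.001 and 0.016.

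The relative amounts of ligand and receptor RNA within a library do not depend on how libraries are scaled. The 4 pairs compared here were picked after the counts had been seen, so the ratios are a description with no test. In the high libraries there were 0.333, 0.248, 0.414 and 0.202 counts of Robo2 for each count of Robo1, against 1.16, 1.17, 2.76 and 1.87 in the negative libraries. On the log2 scale the ratio averaged −1.79 ± 0.46 in the high gate and 0.7 ± 0.6 in the negative gate (SD, n = 4 each). Each high library thus had fewer Robo2 than Robo1 counts, and each negative library more. Read counts of different genes also depend on their 3′ ends, so a ratio is compared between gates and not read as a ratio of molecules.

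The ratio of Ntn1 to Dcc counts was 30.8, 20.6, 22.9 and 30.0 in the high libraries, against 2.56, 1.05, 2.0 and 1.28 in the negative libraries. Its geometric mean was 15.9-fold higher in the high gate. In the low and medium libraries the ratio ran from 1.47 to 3.33 and from 3.62 to 11.8. The ratio of Ntng1 to Ntng2 was 34.5, 45.8, 108 and 73.0 in the high libraries, against 2.38, 0.467, 2.33 and 3.0 in the negative libraries, and rested on few Ntng2 counts. The ratio of Slit3 to Slit1 overlapped between the gates. It was 1.21, 1.84, 0.942 and 1.48 in the high libraries, against 0.829, 1.44, 0.541 and 0.847 in the negative libraries.

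**Figure D3:**
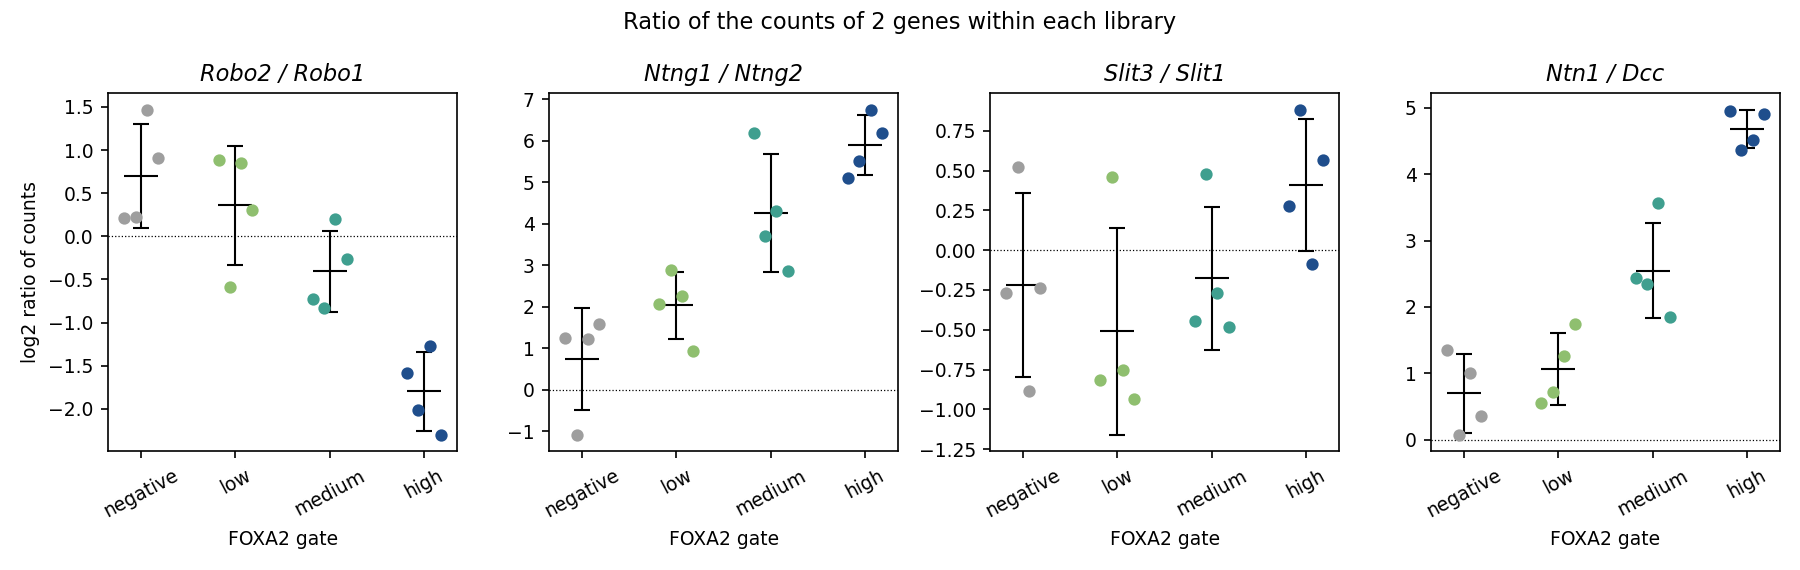
Log2 ratio of the counts of 2 genes within each library (vertical axis) by FOXA2 gate, for Robo2 over Robo1, Ntng1 over Ntng2, Slit3 over Slit1 and Ntn1 over Dcc. Points are the 4 libraries of a gate and bars are the mean ± SD. High and negative libraries are apart in 3 panels, and overlap in that of Slit3 over Slit1, at 0.41 ± 0.41 in the high gate and −0.22 ± 0.58 in the negative gate.

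The other genes of the same pathways were counted from 4 lists with 59 genes. Of the netrin pathway list, 12 of 17 genes had enough counts to be tested in high against negative, 4 rose, none fell and 8 were not called. Over all genes tested 17% were called in this comparison, 8.42% higher and 8.55% lower, and the median log2 fold change was 0.002. The median of the 12 was 0.24. Those that rose were Dscaml1, a DSCAM family adhesion molecule (9.74 ± 1.69 CPM in the high gate and 3.57 ± 1.21 CPM in the negative gate, SD, n = 4 each; log2 fold change 1.45, adjusted p = 0.000303), Flrt1 (0.96, adjusted p = 0.0186), Lrrc4 (0.94, adjusted p = 0.0149) and Rgma (0.45, adjusted p = 0.0145). FLRT proteins bind UNC5 receptors, Lrrc4 encodes the binding partner of netrin-G2, and RGMa is a ligand of neogenin. Neogenin, the DCC relative encoded by Neo1, was not called, at 13.9 ± 2.37 CPM in the high gate and 11.6 ± 1.76 CPM in the negative gate (log2 fold change 0.25, adjusted p = 0.411). Lrrc4c, which encodes the partner of netrin-G1, averaged 1.19 CPM in the high gate and 1.82 CPM in the negative gate (log2 fold change −0.53, adjusted p = 0.642). Draxin, a secreted repellent that binds DCC, had a log2 fold change of −1.03 and was not called (adjusted p = 0.0662).

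Of the further Slit-Robo genes, 7 of 9 were tested and 1 rose, with a median log2 fold change of 0.04. That count is near the share of all genes called (17%, 8.42% higher). It was Srgap1, the gene of a GTPase-activating protein that binds Robo receptors, at 55.1 ± 10.8 CPM in the high gate and 27.2 ± 1.31 CPM in the negative gate (SD, n = 4 each). Its log2 fold change was 1.01 (adjusted p = 2.82e-06), while its relatives Srgap2 (0.05, adjusted p = 0.89) and Srgap3 (−0.37, adjusted p = 0.207) were not called. Robo3, a divergent Robo gene of commissural neurons, had 1 count in all high libraries and 7 in all negative libraries and was not tested. Of 13 cytoplasmic effectors shared by these receptors, all tested, 2 rose and none fell: the kinase genes Fyn (log2 fold change 0.78, adjusted p = 0.00266) and Ptk2 (0.34, adjusted p = 0.0475). This too is near the share of all genes called. The call of Ptk2 was lost in 16 of the 24 alternatives.

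Semaphorins are another family of guidance ligands, sensed by neuropilins and plexins. Of 20 such genes, 19 were tested, 6 rose and none fell, beside 17% of all genes called (8.42% higher). Their median log2 fold change was 0.34, beside 0.002 over all genes tested. The largest change was that of the co-receptor gene Nrp1, at 47.2 ± 10.5 CPM in the high gate and 9.01 ± 2.98 CPM in the negative gate (log2 fold change 2.39, adjusted p = 1.57e-08). Its partner receptor gene Plxna4 was at 15.5 ± 4.16 CPM in the high gate and 3.92 ± 0.426 CPM in the negative gate (1.99, adjusted p = 2.93e-07). The ligand genes Sema6a (1.65, adjusted p = 7.73e-07) and Sema3d (1.72, adjusted p = 0.0124) and the receptor gene Plxnb1 (0.55, adjusted p = 0.0231) also rose. Sema3f, another ligand gene, rose to 4.22 ± 0.576 CPM in the high gate, against 1.57 ± 0.36 CPM in the negative gate (adjusted p = 0.0359). The call was lost in 7 of the 24 alternatives for Sema3f, in 3 each for Plxnb1 and Flrt1, in 2 each for Sema3d and Lrrc4, and in 1 for Rgma. In low against negative, 6 genes of the 4 lists were called higher, beside 1.47% of all genes. They were Ablim1 (1.06, adjusted p = 0.000175), Nrp1 (1.1, adjusted p = 0.00398), Srgap1 (0.62, adjusted p = 0.006), Flrt3 (0.63, adjusted p = 0.0101), Lrrc4 (0.99, adjusted p = 0.0284) and Plxna4 (0.86, adjusted p = 0.0416).

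**Figure D4:**
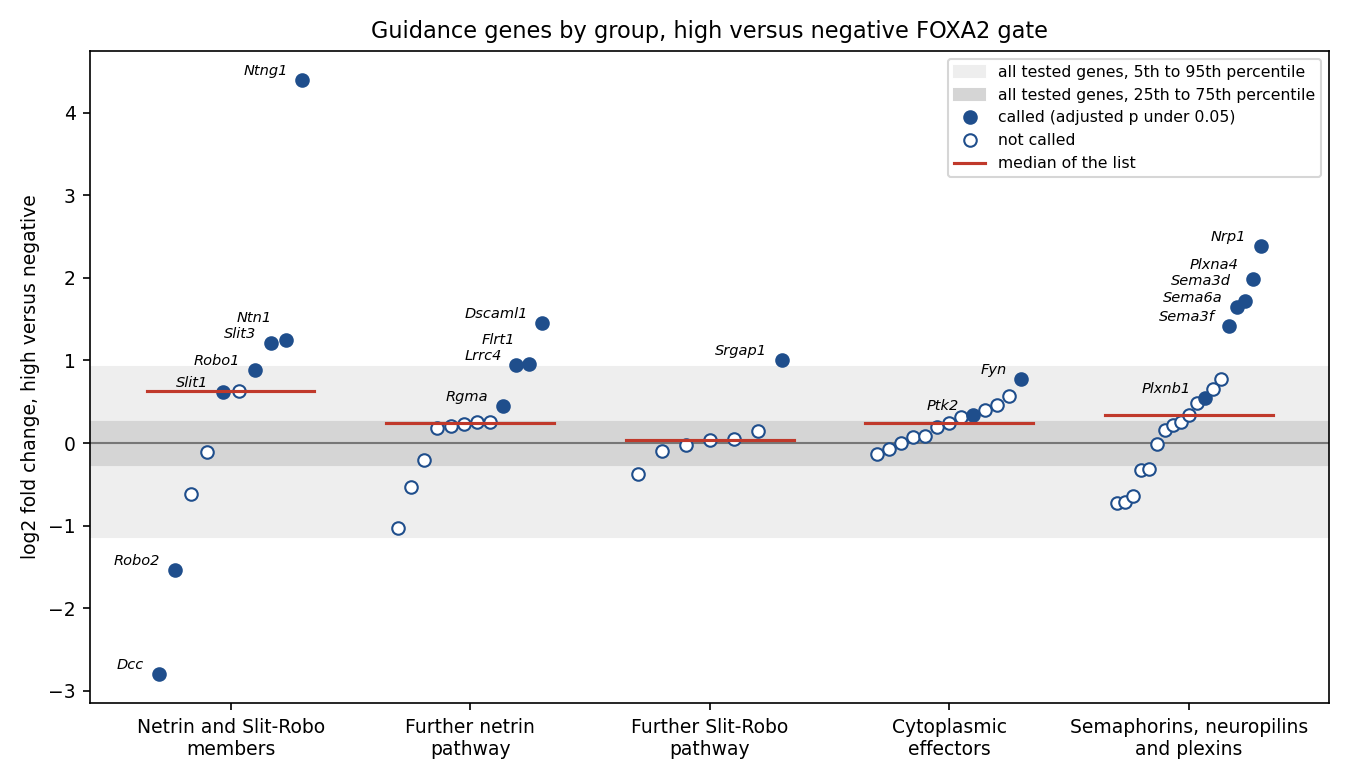
Log2 fold change of high versus negative (vertical axis) for the 10 genes and for the tested genes of 4 further guidance lists. Each point is a gene, filled where the adjusted p was under 0.05, red lines are list medians, and grey bands hold the middle of all genes tested as the key gives. Of the genes shown, Robo2 and Dcc are the filled points below 0, and the list medians run from 0.04 to 0.62.

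The genes whose levels followed each called member most closely were found by Pearson's r of log2 CPM over the 16 libraries, as a description. These libraries share their 4 gates, so any gene that changes between gates scores high. Ntng1 was followed by Smoc1, Col4a1 and Gprc5c (r = 0.99, 0.98 and 0.98) and Ntn1 by Cxxc5, Bcar3 and Capsl (0.91, 0.91 and 0.89). Slit1 was followed by Fgb, Fndc5 and Msx1 (0.9, 0.88 and 0.88), of which Msx1 had 61.8, 113, 111 and 82.5 CPM in the negative, low, medium and high gates. Slit3 was nearest to Frmd4b, Tns3 and Creb3l2 (0.93, 0.92 and 0.92) and Robo1 to Bmp1, Hs2st1 and Gtpbp2 (0.89, 0.88 and 0.87). Robo2 was nearest to Sfrp5, Pax6 and Lfng (0.95, 0.94 and 0.94), and Dcc to Epha7, Ntrk2 and Mest (0.94, 0.93 and 0.93).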

How the data were processed

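RNA of 16 libraries was read by BRB-seq. The authors deposited raw counts, whole numbers for 35976 genes in 1 column per library, with no normalization, per the file headers and values. Per the submitters' processing notes, the tools were STARsolo 2.7.9a, cutadapt 1.18 and DESeq2 1.42.0, and the build was GRCm38. Not given in the sources used here are the annotation, the strand setting and any collapsing of molecular identifiers.

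The 10 genes, the further gene lists and the tests were chosen with earlier results of these data known. All 10 genes are named. Of the further guidance genes, those called in high versus negative are named, and Neo1, Lrrc4c, Draxin, Robo3, Srgap2, Srgap3, Ablim1 and Flrt3 were added after their values were seen. The 3 genes nearest to each called member were taken by Pearson's r, leaving out unnamed gene models.

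The tests used edgeR 4.0.16 (R 4.3.3). The expression filter left 13891 genes, which held at least 99.665% of each library's counts. Libraries were scaled by TMM, and 1 quasi-likelihood model with robust dispersions and the 4 gates was fitted to all 16 libraries. The 6 comparisons of gates were each adjusted by Benjamini-Hochberg over all genes tested. CPM are counts scaled to a common library total after TMM. The standard error of a log2 fold change is its size over the root of F. Within-library ratios used the raw counts. Coordinates are from GENCODE M21 (GRCm38).

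Where none is read, up to 3 counts remain possible by counting error alone, which is 0.918 CPM at the lowest depth. Over 24 pairs of libraries of the same gate, the smallest chi-square per degree of freedom was 4.49, so none was counted as a duplicate. On simulated data for high versus negative, the test found 60 of 100 genes set to a 2-fold change and 87 of 100 set to a 4-fold change, and called 11 of 13691 genes left as they were.

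As alternatives, the counts were scaled by RLE, tested with DESeq2 1.42.0, left unfiltered, thinned to the smallest total, or fitted with a block for the replicate number. Others were a fit of only the gates compared, a fit without low 1 and medium 2, and each library left out in turn. Non-robust dispersions, ratios with a library left out and the alternatives for the further lists were added after the data were seen.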

Additional observations from a re-analysis of the deposited data

Results flagged for a closer look

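Over the 10 genes and 4 gates, 40 groups of 4 libraries were examined for a library far from the other 3 by Dixon's ratio, and chance marks about 1 in 20 such groups. Ntn1 was at 36.4 CPM in high 4, with the other high libraries between 24.6 and 26.0 CPM. Without high 4, the log2 fold change of Ntn1 in high versus negative was 1.11 (adjusted p = 0.000266). Slit1 was at 17.7 CPM in high 2, with the other high libraries between 20.9 and 21.1 CPM. Without high 2, the log2 fold change of Slit1 in high versus negative was 0.68 (adjusted p = 0.0253).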

How the results depend on the processing

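Of 60 gene comparisons, 22 were called, 6 of these lost the call under at least 1 of 24 alternatives, 3 others gained one and none changed direction with a call. The count of the 10 genes called in low versus negative was 2 as reported and 1 after thinning to equal depth, and 1 to 2 with a library left out. In high versus medium it was 3, and 1 to 3 with a library left out. With a library left out it ran from 6 to 8 in high versus negative, 4 to 5 in medium versus negative and 4 to 5 in high versus low, and was 1 each time in medium versus low. After thinning it was 3 in medium versus negative. The call of Slit2 in high versus negative was gained under 13 alternatives, among them DESeq2 (adjusted p = 0.0458) and no filter (0.0386), and its adjusted p ran from 0.0117 to 0.158. The count of cytoplasmic effectors called fell to 1 under RLE scaling, thinning and 10 omissions of a library. Among further guidance genes not called, Dock1 gained a call under 8 alternatives and Draxin under 3.

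The labels do not say what a replicate number stands for, so the numbers were not used as pairs. Over 24 pairs of same-numbered libraries the deviations from the gate means correlated between −0.082 and 0.216, and 6 of them were over 0.1. As a hint from the data and not from the design, 11 of 16 libraries were closest to one of their own number. With the replicate number as a block, 8 genes were called in high versus negative, 5 in medium versus negative, 2 in low versus negative, 1 in medium versus low, 3 in high versus medium and 5 in high versus low. The block added Slit2 in high versus negative (0.65, adjusted p = 0.0117) and Robo2 in medium versus negative (−0.54, adjusted p = 0.0468). Depth limits Ntng2 and Dcc, which had 18 and 21 counts in all high libraries together.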

Other observations

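Some guidance genes too low to be tested were unevenly spread over the gates. Ntn5, a netrin gene, had 24 counts in the negative, 0 in the low, 3 in the medium and 5 in the high libraries together, and Robo4, an endothelial Robo gene, had 17, 0, 1 and 2 in the same order. Unc5c had 36, 30, 11 and 10 counts, and Flrt2 had 11, 29, 31 and 37.

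Several genes were highest in libraries of the same replicate number in all 4 gates. Slit2 was highest in number 4 of each gate, and Slit3 and Dcc in number 2 of each gate. Slit3 and Unc5b were lowest in number 3 of each gate. Over all genes tested, 424 of 13891 (3.05%) were highest in the same number in all 4 gates. These patterns were noticed after the values were seen and have no test.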
